A study of Homo sapiens with 3 samples.

Results

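The vacuolar ATPase (V-ATPase) and the proteins of the lysosomal membrane were followed in 2 RNA libraries of A375 melanoma cells. Members were set by gene symbol, with earlier results of these data known. They were every row beginning with ATP6V0 or ATP6V1, the rows ATP6AP1 and ATP6AP2, and 16 further genes of the lysosomal membrane. This gave 42 of the 20344 genes in the files, made up of 26 ATP6V and ATP6AP rows and the 16 others. A375-VR cells with propranolol (titled A375-VR, Prop) were set against A375 cells with propranolol (titled A375, Prop), with 1 library each. A375 is a human melanoma line that carries mutant BRAF, and the series title concerns resistance to the BRAF inhibitor vemurafenib and the beta-blocker propranolol. How A375-VR was derived, and whether it is a clone or a pool, is not stated in the labels. The sample of A375-VR cells with DMSO was not used here.

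The labels of the A375 library disagree with each other. Its title and cell line label name A375, while the extraction protocol, which is the same for every sample, names A375-VR cells held for 24 h in DMSO or 20 µM propranolol. A difference between the libraries may thus be one of cell line or of drug, and these cannot be told apart. With 1 library per group there was no replicate check and no test of a condition. Values are FPKM, in which the reads or fragments of a gene are divided by its length and by the size of its library. Folds are FPKM of the A375-VR library over FPKM of the A375 library, and each is followed in brackets by a 95% exact interval from recovered reads, which covers counting error only.

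The totals behind the FPKM values were 16438482 in the A375-VR library and 17811339 in the A375 library. Of 8 melanocyte lineage markers, 3 reached 1 FPKM: SOX10, S100B and MITF. The summed FPKM of these markers was 166 in the A375-VR library and 75.8 in the A375 library, of which SOX10 made up 149.6 FPKM in A375-VR and 65.3 FPKM in A375. S100B was also higher in A375-VR, MITF was lower, and the pigment genes TYR, TYRP1, MLANA, DCT and PMEL were under 1 FPKM in both, with TYR at 0. Of 12 leukocyte and macrophage markers, only FCER1G reached 1 FPKM. Their summed FPKM was 3.095 in the A375-VR library and 0.76 in the A375 library, and PTPRC, CD3E, SPI1, CD163 and TYROBP were at 0 in both. In bulk RNA of this kind, fewer cells of a type and less RNA per cell cannot be told apart.

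The V-ATPase is a rotary pump that uses ATP to move protons into the lysosome, the endosome and, in pigment cells, the melanosome. Its cytosolic V1 sector splits ATP and turns a central stalk, and its membrane V0 sector carries protons through a ring of proteolipids beside the a subunit. The lysosomal membrane also holds heavily glycosylated LAMP proteins that line its inner face, together with channels and transporters that move calcium, chloride and the products of digestion. Transcription factors of the MITF, TFEB and TFE3 family are known to bind E-boxes near many of these genes.

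Most V-ATPase and lysosomal membrane genes had somewhat more RNA in the A375-VR library, and few differed by a large amount. Among the 34 members that reached 1 FPKM in either library, 31 had a positive difference on the scale log2(FPKM + 1), as did 60.3% of all 10761 genes past the same filter. The other 3 members were below 0 (background 39.7%). The median difference of these members was 0.30 log2 units, against 0.10 for all genes. A single member, ATP6V0A4, was at least 2-fold higher on this scale (background 3.14%) and none was 2-fold lower (background 0.613%). By the plain FPKM fold, 10 members were at least 1.5-fold higher (background 17.8%) and none at least 1.5-fold lower (background 6.5%). The counting interval of the fold lay above 1 for 26 members (background 43.6%) and below 1 for 2 (background 26.4%). Scaling by the trimmed mean of log ratios moved the median of all genes to -0.028 and that of the members to 0.18. With that scaling, 25 of the 34 members were above 0. The share of all genes above 0 was not counted there, and the 60.3% belongs to the unscaled values.

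The lysosomal membrane genes stood further from 0 than the pump did. The 15 lysosomal membrane members past the filter had a median difference of 0.56, against 0.10 for all genes. All 15 were above 0 (background 60.3%). However, LAMP1, LAPTM4A and LAPTM4B turned below 0 when differences were centred on the median or on the trimmed mean. The 19 ATP6V and ATP6AP rows past the filter had a median of 0.23, with 16 above 0 (background 60.3%). Summed over their 26 rows, the ATP6V and ATP6AP genes came to 603.9 FPKM in the A375-VR library and 500.8 FPKM in the A375 library. The 16 lysosomal membrane genes came to 555.2 FPKM in the A375-VR library and 420.6 FPKM in the A375 library. CD63 was the largest part of the lysosomal membrane sum in both libraries. The gap between these sets could not be tested with 1 library per group.

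**Figure D1:**
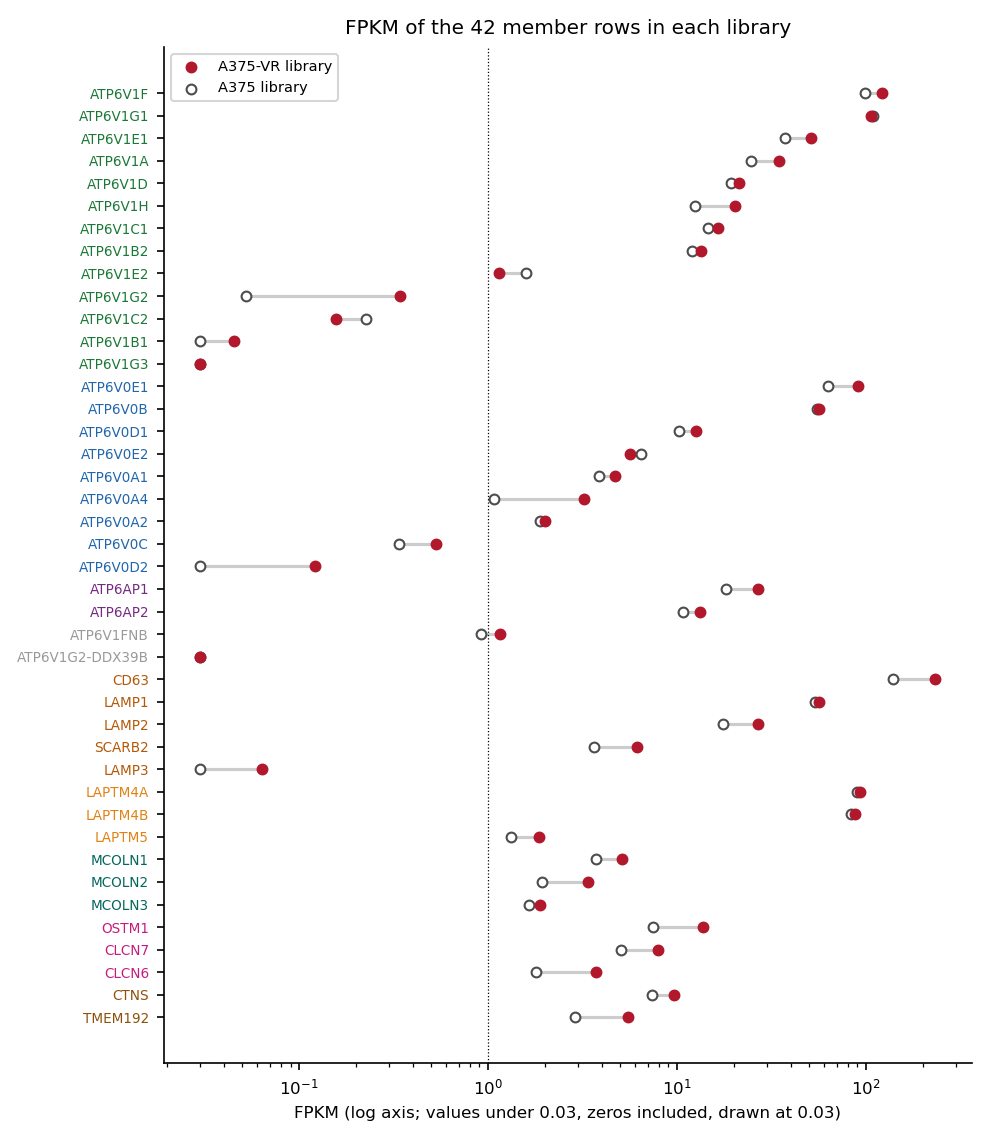
FPKM of all 42 members on a log axis, with the A375-VR library as filled points and the A375 library as open points, gene names coloured by role; values at or near 0 are drawn at the left edge and the dotted line marks 1 FPKM. CD63, ATP6V1F and ATP6V1G1 are the highest rows, and 8 members stay under 1 FPKM in both libraries.

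Because E-boxes are the known binding sites of the MITF family, the promoters of the members were searched for them. RefSeq promoter windows, from 250 bases before to 50 after the gene start on GRCh38.p14, matched 30 of the 42 members. The letters CACGTG, which read the same on both strands, occurred in 9 of these 30 windows (30%), in 7.43% of all 27305 windows and in 10.3% of those of genes past the filter. The longer TCACGTG, searched on both strands and always overlapping a CACGTG, occurred in 8 members (26.7%). It occurred in 3.82% of all windows and in 6.02% of those of genes past the filter. The full palindrome, CACGTG with GT before it and AC after it, contains both shorter motifs. It occurred in 2 members, ATP6V1G1 and MCOLN1 (6.67%), in 0.381% of all windows and in 0.83% of those of genes past the filter. A match describes these letters in this window and is not a measured binding site.

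The LAMP1 window held 6 copies of CACGTG, and no other of the 27305 windows held more than 4. It is shown whole, with each copy in capitals and the last 50 of its 300 bases lying within the gene. The windows of CLCN7 and MCOLN1, which hold 2 copies each, as do those of ATP6V0B and CLCN6, follow it, and the second copy in MCOLN1 has the flanks of the full palindrome.
LAMP1 (chr13:113296989-113297288, plus strand): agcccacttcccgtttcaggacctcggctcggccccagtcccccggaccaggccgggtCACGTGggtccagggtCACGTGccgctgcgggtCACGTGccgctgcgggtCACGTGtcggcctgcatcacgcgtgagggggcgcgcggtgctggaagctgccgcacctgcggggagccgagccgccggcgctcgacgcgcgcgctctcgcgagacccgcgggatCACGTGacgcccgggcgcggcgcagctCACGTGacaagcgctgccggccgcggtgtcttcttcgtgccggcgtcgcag
CLCN7 (chr16:1474979-1475278, minus strand): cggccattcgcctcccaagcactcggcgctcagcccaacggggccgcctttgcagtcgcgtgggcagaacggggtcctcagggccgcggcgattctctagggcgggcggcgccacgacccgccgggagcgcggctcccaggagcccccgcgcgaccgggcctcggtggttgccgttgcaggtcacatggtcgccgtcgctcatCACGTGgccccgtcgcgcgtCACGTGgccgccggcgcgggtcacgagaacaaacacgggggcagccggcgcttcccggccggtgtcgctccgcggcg
MCOLN1 (chr19:7522374-7522673, plus strand): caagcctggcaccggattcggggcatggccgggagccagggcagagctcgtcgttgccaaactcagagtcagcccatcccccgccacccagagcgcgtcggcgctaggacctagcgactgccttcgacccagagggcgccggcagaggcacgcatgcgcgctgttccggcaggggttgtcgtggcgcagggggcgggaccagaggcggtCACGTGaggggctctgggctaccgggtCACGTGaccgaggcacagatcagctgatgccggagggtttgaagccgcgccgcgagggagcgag

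The other 6 members with the motif are shown as 30 bases around their first copy, with CACGTG in capitals, so that the flanks can be compared. Only ATP6V1G1 among them has GT before and AC after the capitals.
CLCN6 (chr1:11806159-11806188, plus strand): gctcgagagggcCACGTGaccgtcccgggg
CD63 (chr12:55729172-55729201, minus strand): ccgggtaggggcCACGTGgccctggccggg
ATP6V0D1 (chr16:67481199-67481228, minus strand): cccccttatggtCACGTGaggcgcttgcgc
ATP6V0B (chr1:43974891-43974920, plus strand): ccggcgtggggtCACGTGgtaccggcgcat
ATP6V1G1 (chr9:114587699-114587728, plus strand): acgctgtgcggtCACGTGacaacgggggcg
ATP6V0E2 (chr7:149872884-149872913, plus strand): tcccttctgcatCACGTGgggactgcgcct

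Of the 9 members with the motif, 7 had a difference above 0 (background 60.3%), of which LAMP1 and ATP6V0B turned below 0 with both centrings. Their differences ran between -0.16 for ATP6V0E2 and 0.76 for CLCN6, with a median of 0.28. The 15 members past the filter whose window lacked it had a median of 0.30. Of these, 15 of 15 were above 0, with LAPTM4A, ATP6V0A2 and ATP6V1D turning below 0 under a scaling. Of the 34 members past the filter, 24 had a window, and the rest, among them LAMP2, ATP6V1H and ATP6V1E2, are in neither group. LAMP1, with the most copies, had a difference of 0.073, and the members with the full palindrome, MCOLN1 and ATP6V1G1, had differences of 0.38 and -0.028. Of the factors themselves, MITF was at 3.47 FPKM in A375-VR, against 6.47 FPKM in A375. TFE3 was at 31.3 FPKM in A375-VR, against 27.97 FPKM in A375. TFEB, under the filter in both, was at 0.646 FPKM in A375-VR, against 0.398 FPKM in A375. It rests on 15 recovered reads in A375-VR and 10 in A375, and its fold of 1.63 (0.683 to 4.05) includes 1.

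**Figure D2:**
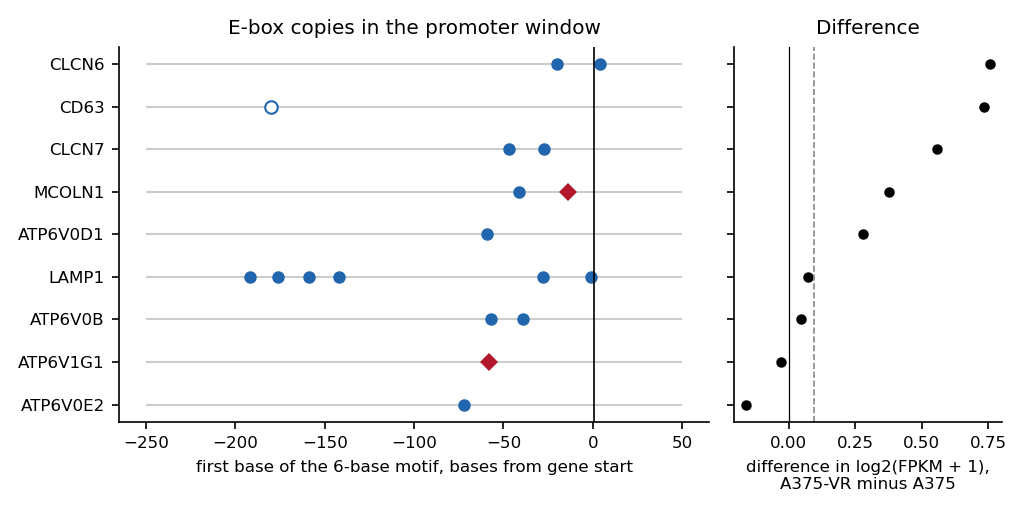
Left, position of each CACGTG copy in the promoter window of the 9 members that hold one, in bases from the gene start; filled circles are copies within TCACGTG, the open circle is a copy without it and diamonds are copies within the full palindrome. Right, the difference in log2(FPKM + 1), A375-VR minus A375, of the same genes, with the median of all genes dashed: LAMP1 holds 6 copies and has a difference of 0.073.

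Of the subunits that bind and split ATP, ATP6V1A was higher in the A375-VR library and ATP6V1B2 lay close to the median of all genes. ATP6V1A, the catalytic subunit, had 34.7 FPKM in the A375-VR library and 24.7 FPKM in the A375 library, 1.41-fold (1.24 to 1.59). ATP6V1B2, the partner that completes the ring of A and B subunits in most cells, had 13.3 FPKM in A375-VR and 11.97 FPKM in A375, 1.11-fold (1.04 to 1.19), and its difference of 0.15 was 0.0072 with the trimmed mean. The catalytic subunit thus stood further apart than its partner, and their counting intervals do not touch. ATP6V1B1, the B subunit of kidney intercalated cells, rested on 1 recovered read in the A375-VR library and 0 in the A375 library, where 0 reads allow up to 0.125 FPKM. This limit uses the recovered length of 1344 bp and may be too high, since the exon length of ATP6V1B1 is 2656 bp.

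The stalk and stator subunits of V1 were uneven. ATP6V1H, known from yeast to hold ATP hydrolysis in check when V1 is free, differed most of the V1 subunits past the filter, with 20.2 FPKM in the A375-VR library and 12.5 FPKM in the A375 library. Its fold was 1.62 (1.502 to 1.75). ATP6V1E1, a stator subunit, had 51.2 FPKM in A375-VR and 37.3 FPKM in A375, 1.37-fold (1.297 to 1.45). Its stator partner ATP6V1G1 had 106.4 FPKM in A375-VR and 108.5 FPKM in A375. Its fold of 0.981 (0.926 to 1.04) was not distinguishable from 1 at this depth in the unscaled values. The difference of ATP6V1G1, -0.028, was -0.124 after centring on the median and -0.175 with the trimmed mean. In the pair of E and G subunits, ATP6V1E1 was higher while the counting interval of ATP6V1G1 held 1. ATP6V1G1 has 7 named pseudogenes and ATP6V1E1 has 3, with which reads could be split, so both values are uncertain.

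The rotor subunits ATP6V1F and ATP6V1D and the stator subunit ATP6V1C1 had smaller folds than ATP6V1H. ATP6V1F had 121 FPKM in A375-VR and 98.6 FPKM in A375, 1.23-fold (1.14 to 1.32), and 20.6% of its exon bases overlap a gene on the other strand. ATP6V1D had 21.2 FPKM in A375-VR and 19.2 FPKM in A375, 1.104-fold (1.03 to 1.19), and its difference turned to -0.0064 with the trimmed mean. ATP6V1C1, which links the stators to V0, had 16.6 FPKM in A375-VR and 14.6 FPKM in A375, 1.14-fold (1.06 to 1.22). Over the 9 V1 subunits past the filter the median difference was 0.17, with 7 above 0 (background 60.3%). That median was 0.078 after centring on the median of all genes and 0.034 with the trimmed mean.

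In the membrane sector the largest difference was in the a subunit, which forms the proton path and directs the pump to a compartment. ATP6V0A4 (Entrez 50617), the paralog known for the kidney and the inner ear, had 3.201 FPKM in the A375-VR library and 1.08 FPKM in the A375 library. The values rest on 217 recovered reads in A375-VR and 79 in A375. Its fold of 2.98 (2.29 to 3.901) was the highest among the members past the filter, and its difference of 1.02 lay at percentile 97.0 of all genes past the filter. The gene spans bases 138391039 to 138484305 of chromosome 7 in GRCh37, minus strand, and 3.7% of its exon bases overlap a gene on the other strand.

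The other a subunits differed less. ATP6V0A1 had 4.698 FPKM in A375-VR and 3.87 FPKM in A375, 1.21-fold (1.099 to 1.34). ATP6V0A2, the Golgi paralog, had 2.01 FPKM in A375-VR and 1.89 FPKM in A375, 1.06-fold (0.929 to 1.21), and its difference turned below 0 with both centrings. TCIRG1, the remaining a subunit, lies outside the symbol rule and was the most abundant of the family, with 15.4 FPKM in A375-VR and 12.96 FPKM in A375. ATP6V0A4 made up 12.6% of the summed a-subunit FPKM in the A375-VR library and 5.43% in the A375 library. TCIRG1 made up 60.9% in the A375-VR library and 65.5% in the A375 library. FPKM is per length, so these shares compare levels between genes, but they depend on the gene lengths used in counting.

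The other V0 subunits had smaller folds than ATP6V0A4. ATP6V0E1, a small membrane subunit, had 90.8 FPKM in the A375-VR library and 63.3 FPKM in the A375 library, 1.43-fold (1.35 to 1.52), and 4 named pseudogenes make its value uncertain. Its paralog ATP6V0E2 was lower, with 5.66 FPKM in A375-VR and 6.44 FPKM in A375, 0.879-fold (0.790 to 0.978), and 19.7% of its exon bases overlap other genes. The e paralogs thus lay on opposite sides of 1. ATP6V0D1, which joins the ring to the central stalk, had 12.6 FPKM in A375-VR and 10.2 FPKM in A375, 1.23-fold (1.15 to 1.32). ATP6V0B, one of the proteolipids of the ring, had 56.6 FPKM in A375-VR and 54.8 FPKM in A375, 1.03-fold (0.985 to 1.08), and its difference turned below 0 with both centrings.

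ATP6V0C, the main proteolipid of the ring, was close to 0 in the files. It had 0.528 FPKM in the A375-VR library and 0.337 FPKM in the A375 library, from 13 recovered reads in A375-VR and 9 in A375. In the annotation, 76.3% of its exon bases overlap other genes on the same strand, and it has 4 named pseudogenes. Its value is thus uncertain and is not read as a level. The accessory proteins were both higher in A375-VR. ATP6AP1, which is needed for assembly of the pump, had 26.97 FPKM in A375-VR and 18.1 FPKM in A375, 1.49-fold (1.39 to 1.59). ATP6AP2, the prorenin receptor, had 13.3 FPKM in A375-VR and 10.8 FPKM in A375, 1.23-fold (1.16 to 1.32).

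**Figure D3:**
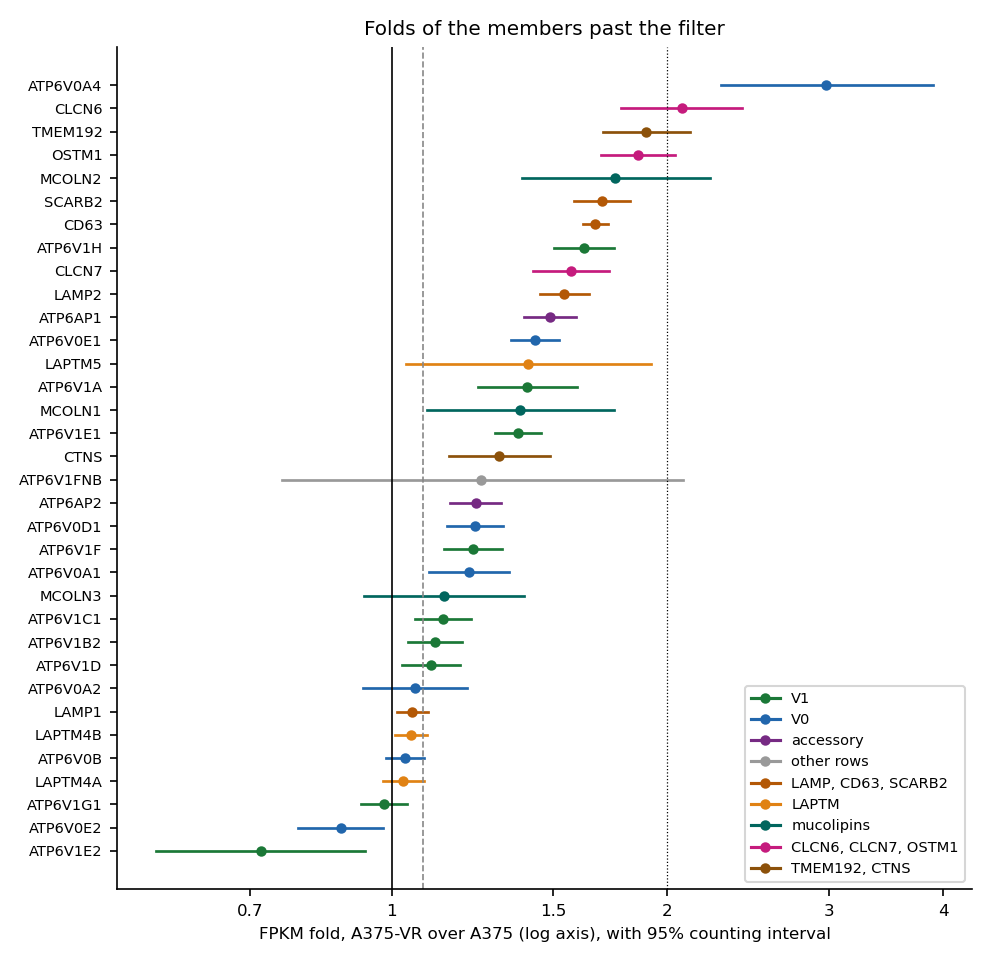
FPKM folds, A375-VR over A375, of the 34 members past the filter on a log axis with 95% counting intervals, coloured by role; the solid line is 1, the dashed line the median fold of all genes (1.08) and the dotted line 2. ATP6V0A4 stands at 2.98, and ATP6V1E2, at 0.7199, is the lowest.

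The tissue-restricted pump paralogs stayed at low levels. ATP6V1E2, an E subunit known from testis, had 1.14 FPKM in the A375-VR library and 1.58 FPKM in the A375 library, 0.7199-fold (0.553 to 0.934), the lowest fold of the members past the filter. ATP6V1G2, the neuronal G subunit, had 12 recovered reads in A375-VR and 2 in A375, and its fold of 6.501 (1.45 to 59.8) lies above 1 but rests on these few reads. ATP6V1C2 had 9 recovered reads in A375-VR and 14 in A375, with a fold of 0.697 (0.266 to 1.73) that includes 1. ATP6V0D2, the d subunit of osteoclasts, had 3 recovered reads in A375-VR and 0 in A375, where 0 reads allow up to 0.112 FPKM. This limit uses the recovered length of 1505 bp and may be too high, since the exon length of ATP6V0D2 is 2940 bp. ATP6V1G3 was at 0 in both libraries. Of the rows that are not subunits, the read-through row ATP6V1G2-DDX39B was at 0 in both. ATP6V1FNB, a neighbour of ATP6V1F, had 1.15 FPKM in A375-VR and 0.921 FPKM in A375, 1.25-fold (0.759 to 2.08), and 48.9% of its exon bases overlap other genes.

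Outside the a subunit, 1 paralog dominated each pump family in both libraries. ATP6V1G1 held 99.7% of the G-subunit FPKM in the A375-VR library and 99.95% in the A375 library. ATP6V1C1 held 99.1% of the C-subunit FPKM in A375-VR and 98.5% in A375, and ATP6V1E1 held 97.8% of the E-subunit FPKM in A375-VR and 95.9% in A375. The e subunit was the most mixed of these, with ATP6V0E1 at 94.1% in A375-VR and 90.8% in A375. Among the lysosomal membrane families, LAMP2 held 32.4% of the LAMP sum in the A375-VR library and 24.6% in the A375 library.

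**Figure D4:**
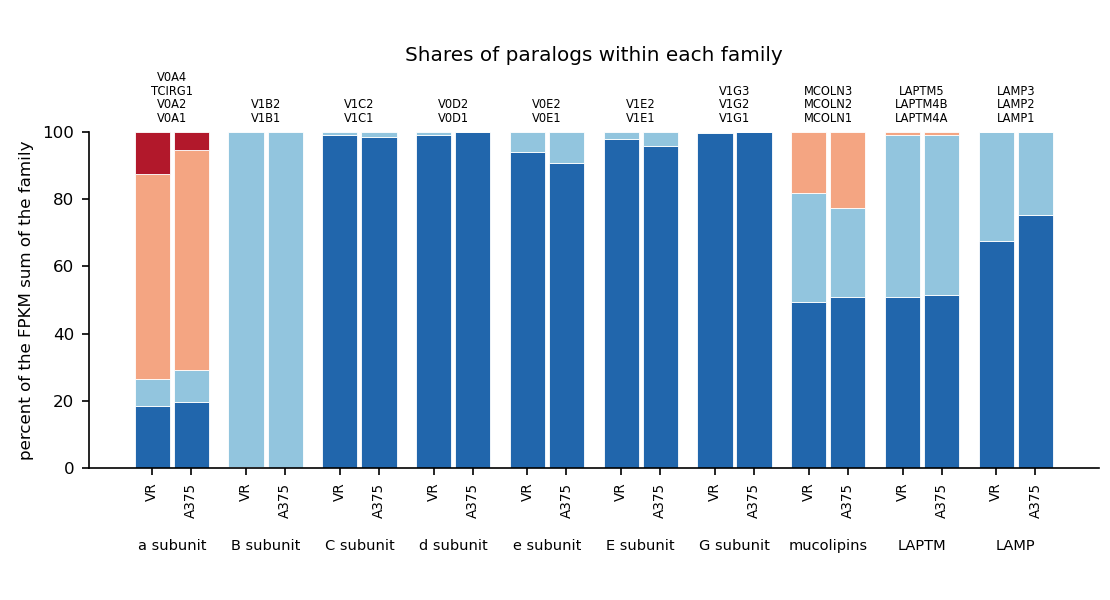
Share of each paralog in the FPKM sum of its family, in percent, for the A375-VR library (VR, left bar) and the A375 library (right bar); names above the bars run in the order of the stacked segments. The share of ATP6V0A4 is 12.6% in the A375-VR library and 5.43% in the A375 library.

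Of the major glycoproteins, LAMP2 stood apart and LAMP1 was nearly level. LAMP2, one splice form of which takes up proteins in chaperone-mediated autophagy, had 26.98 FPKM in the A375-VR library and 17.5 FPKM in the A375 library, 1.54-fold (1.45 to 1.64). LAMP1, the abundant glycoprotein whose promoter is printed above, had 56.3 FPKM in A375-VR and 53.5 FPKM in A375, 1.05-fold (1.01 to 1.09), under the median fold of all genes. The difference of LAMP1 turned to -0.023 after centring on the median and to -0.073 with the trimmed mean. LAMP3, a marker of mature dendritic cells, rested on 1 recovered read in A375-VR and 0 in A375, which allow up to 0.177 FPKM there. This limit uses the recovered length of 954 bp and may be too high, since the exon length of LAMP3 is 3785 bp.

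CD63 and SCARB2 were also more than 1.5-fold higher in A375-VR. CD63, a tetraspanin of late endosomes, melanosomes and exosomes, was the most abundant member, with 232.9 FPKM in the A375-VR library and 139.7 FPKM in the A375 library. Its fold of 1.67 (1.62 to 1.72) rests on 10080 recovered reads in A375-VR and 6549 in A375 and has the narrowest interval among folds above 1.5. The gene spans bases 56119107 to 56123491 of chromosome 12 in GRCh37, minus strand. SCARB2, the receptor that carries glucocerebrosidase to the lysosome, had 6.17 FPKM in A375-VR and 3.64 FPKM in A375, 1.696-fold (1.58 to 1.82).

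The LAPTM family lay close to the rest of the genes, and its median turned below 0 with both centrings. LAPTM4A, a small multispanning protein of late endosomes and lysosomes, had 92.6 FPKM in A375-VR and 89.9 FPKM in A375, 1.03-fold (0.979 to 1.08). LAPTM4B, its close relative, had 87.4 FPKM in A375-VR and 83.4 FPKM in A375, 1.05-fold (1.01 to 1.09), and it has 2 named pseudogenes. Differences of this size are within what the scaling alone shifts. LAPTM5, known from blood cells, had 1.86 FPKM in A375-VR and 1.32 FPKM in A375, 1.41-fold (1.03 to 1.92), from 100 recovered reads in A375-VR and 77 in A375, and 19.3% of its exon bases overlap a gene on the other strand. The summed leukocyte markers were also higher in A375-VR, at 3.095 FPKM against 0.76 FPKM in A375, with PTPRC and SPI1 at 0 in both, and their part in the LAPTM5 value was not tested.

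The chloride transporters and their partner had the highest median among the groups of members. CLCN7, which exchanges chloride for protons in the lysosome, had 7.89 FPKM in the A375-VR library and 5.03 FPKM in the A375 library, 1.57-fold (1.42 to 1.72), and 15.7% of its exon bases overlap genes on the other strand. OSTM1, the subunit that CLCN7 needs for stability, had 13.8 FPKM in A375-VR and 7.43 FPKM in A375, 1.86-fold (1.69 to 2.04). CLCN6 (Entrez 1185), the late endosomal relative, had 3.73 FPKM in A375-VR and 1.80 FPKM in A375, 2.07-fold (1.78 to 2.42). All 3 were over 1.5-fold higher in A375-VR (background 17.8%), with a median difference of 0.76. The CLCN6 gene spans bases 11866153 to 11908136 of chromosome 1 in GRCh37, plus strand. Its plain fold passes 2, while its difference with the pseudocount does not reach 1.

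The mucolipins, cation channels of endosomes and lysosomes, had folds above 1. MCOLN1, the channel mutated in mucolipidosis type IV, had 5.14 FPKM in the A375-VR library and 3.72 FPKM in the A375 library, 1.38-fold (1.09 to 1.75). MCOLN2 had 3.38 FPKM in A375-VR and 1.92 FPKM in A375, 1.75-fold (1.39 to 2.23). MCOLN3 had 1.87 FPKM in A375-VR and 1.64 FPKM in A375, 1.14-fold (0.931 to 1.39). The intervals of all 3 overlap one another, and that of MCOLN3 includes 1.

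The remaining lysosomal membrane genes were both higher in A375-VR. TMEM192, a membrane protein used as a handle to isolate lysosomes, had 5.501 FPKM in A375-VR and 2.90 FPKM in A375, 1.897-fold (1.703 to 2.11). CTNS, the cystine exporter lost in cystinosis, had 9.63 FPKM in A375-VR and 7.35 FPKM in A375, 1.31-fold (1.15 to 1.49). Among the members past the filter, only ATP6V0A4 and CLCN6 had a higher fold than TMEM192.

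Genes that work with these proteins were counted for context. Of 13 other V-ATPase subunits and assembly factors past the filter, 10 had a difference above 0 (background 60.3%), with a median of 0.24. None was 2-fold higher (background 3.14%) or 2-fold lower (background 0.613%). The differences furthest from 0 were 0.61 for NCOA7, a TLDc protein that binds the pump, 0.49 for DMXL1, part of the complex that reassembles V1 on V0, and 0.34 for WDR7, its partner. Of 14 genes of the lysosomal mTORC1 scaffold, 12 were above 0 (background 60.3%) with a median of 0.22. RRAGC and RRAGD, which encode the C and D Rag GTPases, had folds of 1.97 (1.75 to 2.21) and 1.89 (1.63 to 2.199), and RRAGA had a fold of 1.37 (1.304 to 1.44).

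Other transporters and proteins of the lysosomal membrane, counted as 1 list, had a higher median than the pump. Of 23 past the filter, 22 had a difference above 0 (background 60.3%) and 12 were at least 1.5-fold higher by FPKM (background 17.8%), with a median of 0.48. MFSD12, a cysteine transporter of lysosomes and melanosomes, had 95.3 FPKM in the A375-VR library and 40.1 FPKM in the A375 library, 2.37-fold (2.28 to 2.47). SLC17A5, the sialic acid exporter, had 6.68 FPKM in A375-VR and 2.54 FPKM in A375, 2.63-fold (2.19 to 3.18). These were the only members of that list at least 2-fold higher with the pseudocount, and NPC1, HGSNAT and LITAF followed on that scale, with differences of 0.94, 0.83 and 0.67.

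Genes that place lysosomes in the cell and the enzymes inside them were set beside the membrane. Among 14 positioning genes the median was 0.19, and RILP, an effector of RAB7A, had 10.6 FPKM in A375-VR and 4.41 FPKM in A375, 2.42-fold (2.01 to 2.92). BORCS6 and PLEKHM1 had differences of 0.90 and 0.67. The 45 lysosomal hydrolases and activators past the filter had a median of 0.57, with 43 above 0 (background 60.3%). On the log2(FPKM + 1) scale, 7 of the 45 were at least 2-fold higher (background 3.14%), with differences between 1.09 for PSAP and 1.53 for CTSZ, and the others were NEU1, IDUA, FUCA1, CTSF and CTSD. LIPA, SMPD1 and TPP1 followed, with differences of 0.98, 0.89 and 0.89. The median of the hydrolases lay beside that of the lysosomal membrane members, 0.56, and above that of the ATP6V and ATP6AP rows, 0.23, without a test of either gap.

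**Figure D5:**
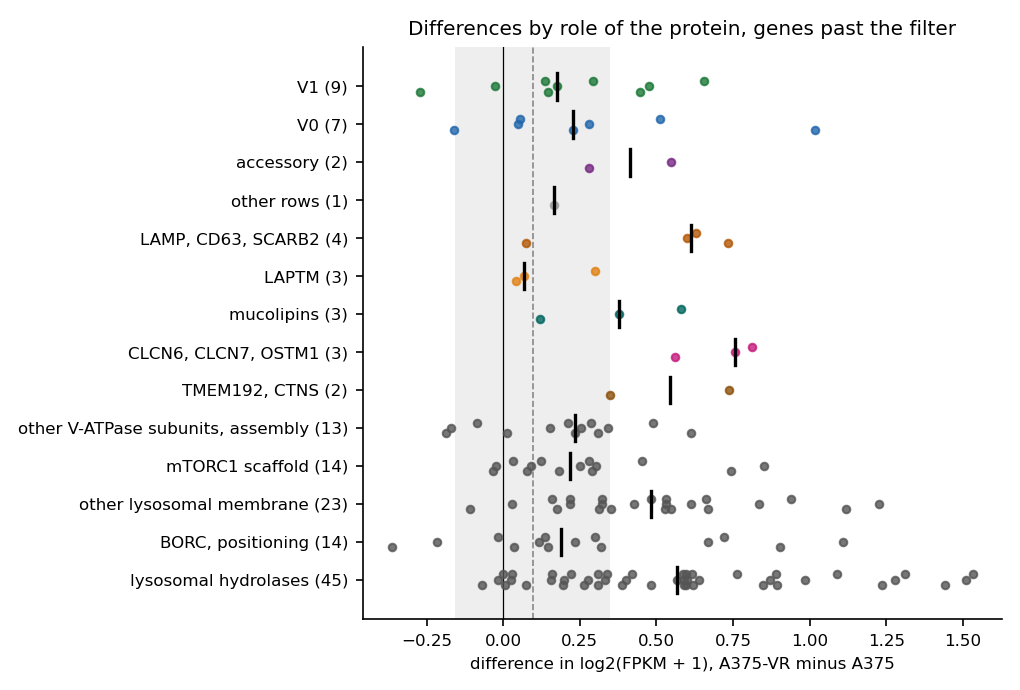
Difference in log2(FPKM + 1), A375-VR minus A375, of each gene past the filter, grouped by role, with the number of genes in brackets and the group median as a black bar; the grey band is the range between the quartiles of all genes and the dashed line their median (0.10). CLCN6, CLCN7 and OSTM1 lie wholly to the right of the band, as do TMEM192 and, by a small margin, CTNS. The LAPTM family lies wholly within it.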

How the data were processed

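The deposited values are FPKM, 1 per gene and library, which the authors made from stranded TruSeq mRNA reads aligned with TopHat 1.3.3 to GRCh37, per the series design text; counting tool, annotation and use of strand are not stated there, so reads of overlapping genes may be shared. The difference is log2(FPKM + 1) of A375-VR minus A375. The filter asked for 1 FPKM in either library, and a size of 1 or more was called 2-fold, which understates low genes. The 1.5-fold and interval counts were added after seeing the data. Alternatives were the pseudocount, the filter and the scaling.

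Whole reads were recovered from the FPKM. The ratio of the totals follows from 274 genes with equal reads, and their common factor was the smallest of 12 tried at which lengths were not nearly all multiples of 3 (31.0% divisible, against 92.1% before). All 15404 genes above 0 then gave whole reads and lengths, to a relative tolerance of 1e-06. The smallest fitting reads were used, so real counts may be larger and intervals too wide. The reads are paired-end, and whether single reads or pairs were counted is not stated. If single reads were counted, intervals may instead be too narrow. Intervals are 95% Clopper-Pearson, and 0 reads were taken to allow 3. Where the recovered length is shorter than the one used in counting, the FPKM so allowed is too high. The recovered length lay within 2% of the GENCODE release 44 exon length for 20 of 40 members.

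Members and lists were chosen with earlier results of these data known. Named are all members and, per context list, genes 2-fold apart and up to 3 others furthest from 0, except a few items that are not reported here. TFEB and TCIRG1 were named after their values were seen. Protein sequences were not used here. Python 3.11.15, scipy 1.17.1 and pandas 2.3.3 were used, and the steps were tested on simulated data.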

Additional observations from a re-analysis of the deposited data

How the results depend on the processing

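The members past the filter had a median difference between 0.18 and 0.36 over the alternatives tried. The number of members at least 2-fold higher was 2 with a pseudocount of 0.1. CLCN6 then joins ATP6V0A4. It was 0 with the filter at FPKM 5, which ATP6V0A4 does not reach, and after centring on the median or the trimmed mean, where its difference is under 1. No member was 2-fold lower in any of these. Over all genes, 338 were 2-fold higher and 66 lower in A375-VR (83.7% higher). The counts were 689 and 140 with a pseudocount of 0.1, and 624 and 104 after rescaling to a common sum. The FPKM sums were close, at 260896.7 in A375-VR and 265149.2 in A375. Rescaling raised all values before the same pseudocount was added, so the pseudocount weighed less there, also for the member median of 0.36. Centring on the median gave 271 and 100 (73.0% higher), and the trimmed mean 248 and 116 (68.1% higher). Centring on the median also gave -0.023 for LAMP1, -0.028 for LAPTM4B and -0.028 for the LAPTM median. The trimmed mean gave -0.073 for LAMP1, -0.079 for LAPTM4B, -0.079 for the LAPTM median and -0.0064 for ATP6V1D. The median of MITF, TFEB, TFE3 and TFEC was -0.29, and 0.12 without the filter, which adds TFEB and TFEC. The alternatives gave 341 values of single genes, lists and minor counts. Of these, 293 moved by less than their counting error or, for counts, by at most 1.5 times. A change of filter cannot move the difference of a single gene, so many of the 293 were fixed in advance. For a list, the error used was that of a typical gene in it, which is not the error of the median. Other causes were not tested. No paired analysis was possible because there is 1 library per group. ATP6V1C2, ATP6V1G2, ATP6V0D2, ATP6V1B1 and LAMP3 rest on few recovered reads, which limits their precision.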
